A study of Mus musculus with 8 samples.

Results

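Serpins and other protease inhibitors are proteins that block proteolytic enzymes, and the liver is the main source of those found in blood plasma. A serpin offers an exposed reactive centre loop as bait, and the protease that cuts it is trapped in a covalent complex. The alpha-macroglobulins instead enclose the protease in a cage, and Kunitz, cystatin and tissue inhibitor of metalloproteinases domains plug the active site directly. Several members of these families have lost inhibition and carry hormones or assist folding.

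The genes were chosen by symbol alone, as those that start with Serpin, Itih, Spint, Spink, Timp, Mug or Cst (with a digit or b after Cst), together with Pzp, Ambp, Ahsg and Fetub. The rule found 34 of the 7500 genes listed for mouse liver ribosome footprints. In the mm9 annotation used here 103 protein-coding genes have such a symbol, and the other 69, among them antithrombin (Serpinc1), Serpina1d and all Kazal inhibitors and cystatins, were not analysed here.

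Ribosome profiling counts the mRNA fragments that ribosomes protect from nuclease, so that footprints on a coding sequence reflect how many ribosomes were on it. Livers were taken from male wild-type FVB/N mice that from weaning received, for 6 weeks, a torula yeast diet low in selenium, either with no selenium added (0 Se, 2 mice) or with 0.1 ppm selenium as sodium selenite (0.1 Se, 2 mice). The labels give 2 libraries for each mouse and 8 in all. The values below are the authors' pooled average, 1 for each gene, and the table does not name the libraries that entered it. They carry no SD and no n, the depth of each library is unknown, and differences between neighbouring levels could not be set against a spread. The diets were not compared here, because the columns that separate them hold the authors' own fold changes and p-values, which were not used.

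Protease inhibitor genes as a class stood high among the translated mRNAs of liver. Their median level was a log2 CPM of 8.35, where CPM is counts per 1000000 of library size, against 3.95 for all listed genes. Levels of single genes were compared after division by the counted coding length, as CPM per kb. On this scale the median was 270.4 for the 34 genes and 11.3 for all 7500, and 20 of the 34, or 58.8%, lay above the 90th percentile of 135 CPM per kb. When sequence shared with other genes was taken off the length of the 34 genes, their median was 438 (exact copies) or 540 (copies within 2 mismatches) CPM per kb, while the length of the other genes was left whole. The spread was wide, from 2.60 CPM per kb for Serpinb8 to 4652 for Ahsg. The 34 genes are 0.453% of those listed and held 5.0% of the listed footprints. The 5 genes with the most footprints, Pzp, Serpina3k, Mug1, Ahsg and Ambp, held 62.2% of the footprints of the class.

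**Figure D1:**
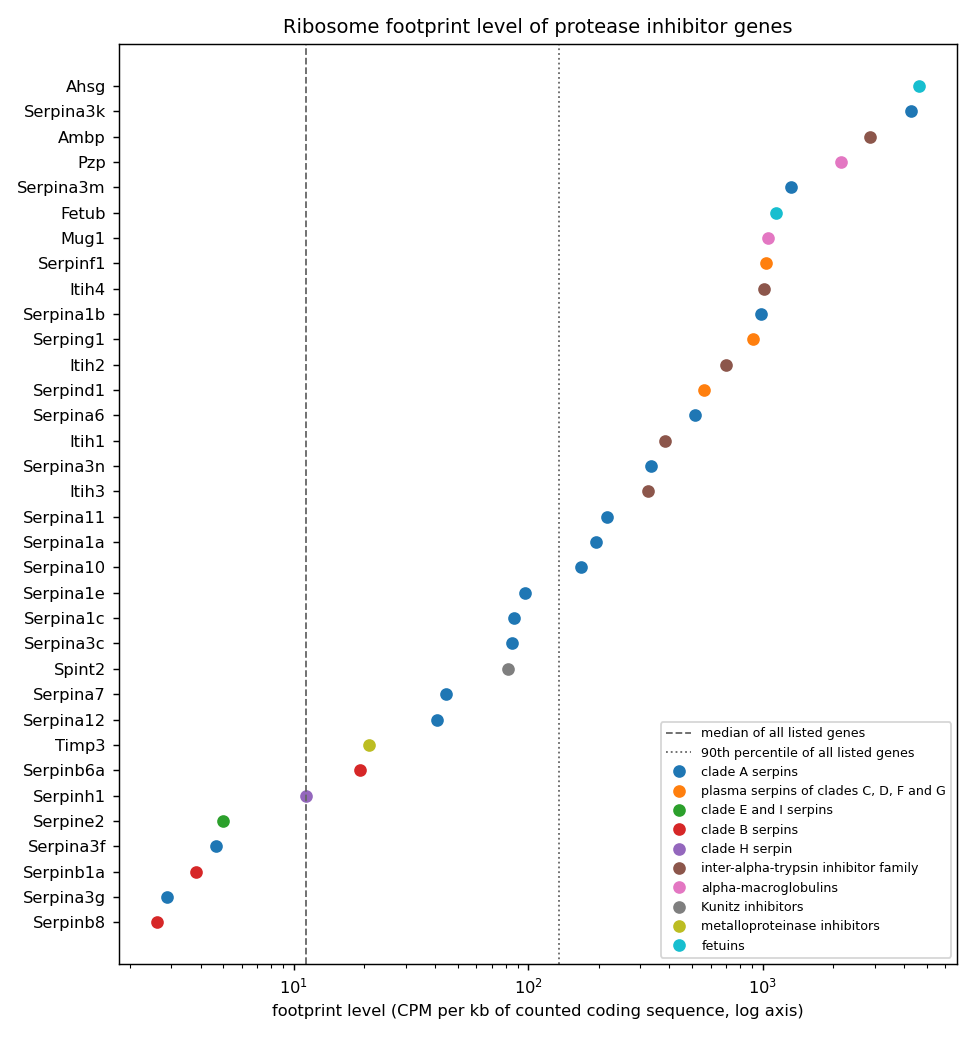
Footprint level of each of the 34 genes in CPM per kb of counted coding sequence on a log axis, each point being the authors' pooled average and coloured by family. Of the 34 points, 29 lie right of the dashed line at the median of all listed genes (11.3), and 20 right of the dotted line at the 90th percentile (135).

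The 5 genes below the median of all listed genes were Serpine2, Serpina3f, Serpinb1a, Serpina3g and Serpinb8. All 5 also had a log2 CPM under 3, as did 33.4% of the listed genes. Serpinh1, at 11.3 CPM per kb, sat at that median.

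**Figure D2:**
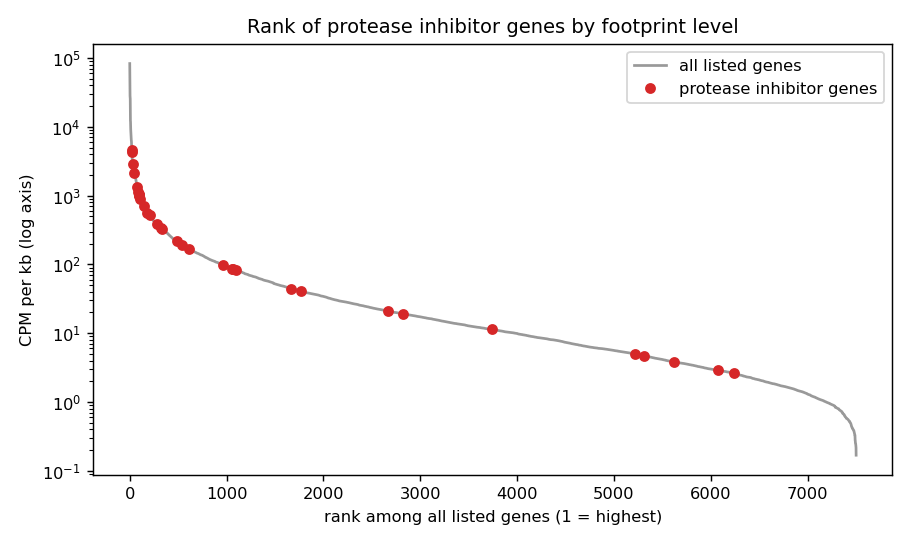
Level of all 7500 listed genes in CPM per kb (log axis) against their rank, with the 34 protease inhibitor genes as red points. The points crowd the steep left end, where Ahsg has rank 21 and Serpina3k rank 23, and thin out to rank 6237 for Serpinb8.

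The tissue carried the marks of liver. Of 10 hepatocyte markers 8 were listed, from 209 CPM per kb to 51734 for Alb, and all 8 lay above the 90th percentile. Markers of other liver cells had lower medians, 26.5 CPM per kb over 6 of 7 Kupffer cell and macrophage genes, 20.3 over 5 of 5 endothelial genes, 8.88 over 6 of 6 stellate cell and fibroblast genes and 2.28 over 4 of 5 cholangiocyte genes. Of these, the Kupffer cell gene Clec4f, at 171 CPM per kb, and the stellate cell gene Dcn, at 208, also lay above the 90th percentile. Of the 6 pancreatic acinar markers only Cela1 was listed, at 8.04 CPM per kb, and no red cell, B cell or T cell marker was. A gene that is not listed cannot be taken as low, since the hepatocyte markers Tf and Cps1 were not listed either. In whole tissue, fewer cells of a type and less RNA per cell cannot be told apart.

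Clade A serpins are the largest family here, with 15 genes and 23.4% of the footprints of the class. Serpina3k, which encodes a serpin that binds tissue kallikrein, had the highest level of the clade over whole counted length, with a log2 CPM of 12.33 and 4298 CPM per kb. Over the sequence that no other gene shares within 2 mismatches it was second to Serpina1b. Its neighbour Serpina3m followed with 1317 CPM per kb, and Serpina3n, the copy best known as an acute-phase protein, with 333. Serpina1b, one of the mouse copies of alpha-1 antitrypsin, the inhibitor of neutrophil elastase, was listed at 984 CPM per kb. The other listed copies were lower, at 194 for Serpina1a, 97.0 for Serpina1e and 86.6 for Serpina1c.

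The hormone carriers of clade A differed from each other. Serpina6, the corticosteroid-binding globulin, was at 516 CPM per kb. Serpina7, the thyroxine-binding globulin and the only member of the class on the X chromosome, was at 44.6 CPM per kb. Of the remaining clade A genes, Serpina11 stood at 217 CPM per kb, Serpina10, the protein Z-dependent inhibitor of coagulation factor X, at 167, and Serpina12, or vaspin, at 40.7. The lowest of the clade were Serpina3f at 4.67 and Serpina3g at 2.88 CPM per kb, while Serpina3c was at 84.9.

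All clade A genes but Serpina7 lie in 1 cluster on chromosome 12 (mm9, 104854885 to 105652539), which spans 798 kb and holds 14 listed genes. Levels within the cluster spanned a ratio of 1492 between Serpina3k and Serpina3g. High and low genes followed each other there in the order of the listed genes. Serpina3f, with 4.67 CPM per kb, starts at 105452754 and Serpina3g, with 2.88, at 105474455, and the next listed gene, Serpina3k, which starts at 105576696, was the highest over whole counted length. The 14 genes of the cluster held 1.16% of all listed footprints.

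**Figure D3:**
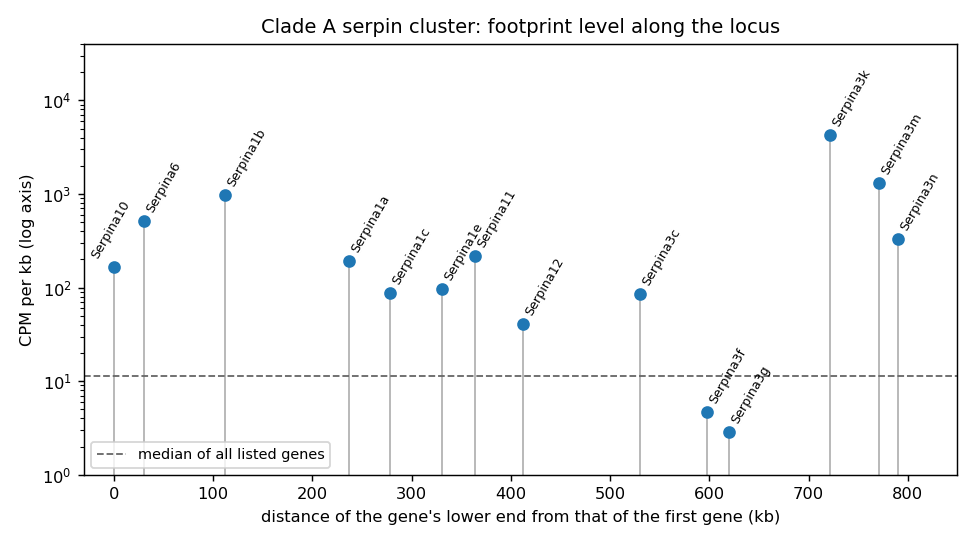
Level of the 14 clade A serpin genes of the chromosome 12 cluster in CPM per kb (log axis) against the distance of each gene's lower end from that of Serpina10 in kb. The 3 genes at the right end, Serpina3k, Serpina3m and Serpina3n, lie between 333 and 4298 CPM per kb, while Serpina3f and Serpina3g fall below the dashed median of all listed genes (11.3).

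Copies in this cluster are so alike that reads cannot always be assigned. In the study, a read was kept when it aligned to a single place, and 2 mismatches were tolerated. To see what that leaves, every window of 30 bases, about the length of a footprint, in the counted part of each gene was compared with the coding sequences of all other genes of the mm9 annotation. Of the 34 genes, 18 had under 1% of windows with a copy elsewhere within 2 mismatches, 3 had between 1% and 10%, and 13 had over 50%. The 13 were all clade A or clade B serpins except Mug1.

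The 4 listed alpha-1 antitrypsin copies were the extreme. Their encoded proteins were 92.7% to 97.3% identical to each other. Serpina1b had a copy within 2 mismatches for 97.1% of its 1153 windows, which leaves 34 unique windows, Serpina1a 28, Serpina1c 37 and Serpina1e 80. In each of the 4 genes most unique windows lay in a single stretch near the end of the coding sequence, which held 100% of them in Serpina1a, 85.3% in Serpina1b, 73.0% in Serpina1c and 68.8% in Serpina1e. This is the part of the gene that encodes the reactive centre loop, which decides which protease a serpin traps.

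The stretch is printed here for the 4 copies because most windows with over 2 mismatches to every other gene lie in it. It runs from base 1092 to base 1180 of a coding sequence of 1242 bases (codons 364 to 394) and is read 5′ to 3′ on the coding strand, with capitals at the positions where the 4 copies differ. All 4 lie on the minus strand of chromosome 12 (mm9, reference sequence), within the last coding exon.
Serpina1a: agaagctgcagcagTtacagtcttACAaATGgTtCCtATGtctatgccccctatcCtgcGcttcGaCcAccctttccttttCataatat
Serpina1b: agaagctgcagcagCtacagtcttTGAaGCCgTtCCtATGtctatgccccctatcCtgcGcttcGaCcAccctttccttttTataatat
Serpina1c: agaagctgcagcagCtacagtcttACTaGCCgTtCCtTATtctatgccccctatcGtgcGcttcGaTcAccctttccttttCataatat
Serpina1e: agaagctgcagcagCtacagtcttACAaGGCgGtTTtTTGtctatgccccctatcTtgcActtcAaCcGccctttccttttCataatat

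The places are chr12:105091947-105092035 for Serpina1a, chr12:104966514-104966602 for Serpina1b, chr12:105133284-105133372 for Serpina1c and chr12:105185290-105185378 for Serpina1e. Of the 89 bases, 19 differ among the 4 copies, or 21.3%. Outside the stretch 52 of 1153 bases do, or 4.51%. Serpina1a and Serpina1c differ at 10 bases inside and at 9 in all the rest of the coding sequence.

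**Figure D4:**
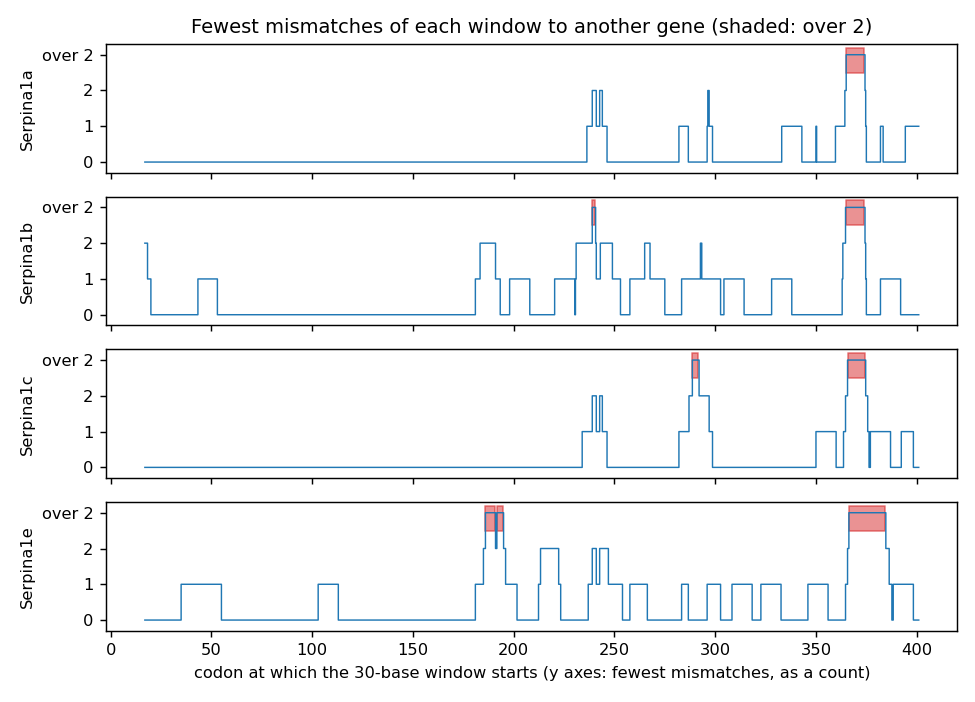
For each 30-base window of the 4 listed alpha-1 antitrypsin copies, placed by the codon at which it starts, the fewest mismatches to any other gene, with windows over 2 mismatches shaded red. Most windows sit at 0 or 1, and all 4 copies share a red block that starts at codon 364 to 366.

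The level depends on the length it is divided by. If only windows without an exact copy could yield reads, Serpina1b would stand at 2590 CPM per kb of such sequence, and if only windows without a copy within 2 mismatches could, at 33359, a factor of 33.9 above the value over its whole counted length. For Serpina1a, whose deposited length is longer than that of the annotated coding sequence, the values were 194, 1455 and 8005, for Serpina1c 86.6, 492 and 2698, and for Serpina1e 97.0, 233 and 1399. The sequences compared are those of the reference strain and not of FVB/N, and the sources used here do not give the exact aligner settings, so these values are alternatives and not bounds on the level. Serpina1b was the highest of the 4 copies on all 3 scales, whereas Serpina1c passed Serpina1e on the other 2.

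The Serpina3 copies were less alike. Serpina3k and Serpina3m share 83.6% of residues and 91.0% of coding bases, and the closest other pair, Serpina3c and Serpina3m, shares 79.8% of residues. Unique windows made up 33.2% of Serpina3k, 18.3% of Serpina3m and 35.4% of Serpina3n. Over the sequence without a copy within 2 mismatches, Serpina3k stood at 12937 CPM per kb, Serpina3m at 7188 and Serpina3n at 941, which leaves their order as listed. Serpina3c stood at 362, Serpina3f at 17.6 and Serpina3g at 7.24. For Serpina3g the annotated coding sequence is shorter than the deposited length, so its windows cover only part of it.

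**Figure D5:**
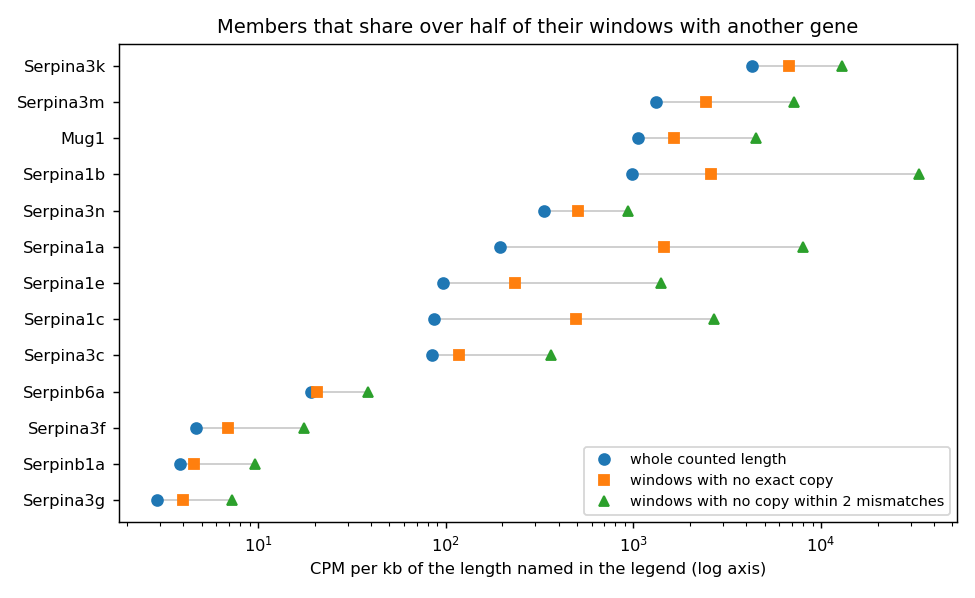
Level in CPM per kb (log axis) of the 13 genes with over 50% of windows shared, divided by the whole counted length (circles), by the part without an exact copy elsewhere (squares) and by the part without a copy within 2 mismatches (triangles). The distance between circle and triangle is widest for Serpina1a, a factor of 41.2 from 194 to 8005, and narrowest for Serpinb6a, a factor of 2.01 from 19.2 to 38.6.

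Plasma serpins of other clades were uniformly high. Serpinf1, pigment epithelium-derived factor, a serpin without inhibitory action, had 1031 CPM per kb (chromosome 11, 75223271, mm9). Serping1, the C1 inhibitor, which restrains complement and the contact system, had 904, and Serpind1, or heparin cofactor II, an inhibitor of thrombin, had 564. None of the 3 had as many as 1% of its windows in another gene. Serpinc1 and Serpinf2, the other annotated genes of these clades, were not analysed here.

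The 5 listed serpins that act inside cells or in tissue were all below the median of the class, and 3 of the 5 lay below that of all listed genes. Only 3 of 27 annotated clade B genes and 1 of 5 annotated clade E and I genes were listed, so these levels do not describe the families as a whole. Serpinh1, a chaperone for collagen in the endoplasmic reticulum, was at 11.3 CPM per kb, the median of all listed genes. Serpine2, or protease nexin-1, was at 4.99. Of clade B, which lacks a classical signal peptide, Serpinb6a stood at 19.2 CPM per kb, Serpinb1a, an inhibitor of neutrophil elastase, at 3.81 and Serpinb8 at 2.60. Serpinb6a and Serpinb1a share 50.3% and 60.6% of windows within 2 mismatches, mostly with other clade B genes that were not analysed here, such as Serpinb6b and Serpinb1b.

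The inter-alpha-trypsin inhibitor is built from heavy chains encoded by Itih genes, joined by a sugar chain to bikunin, a Kunitz inhibitor cut from the precursor encoded by Ambp. All 5 listed genes of this family lay above the 90th percentile, and together they held 22.0% of the footprints of the class. Ambp, the light chain gene, was highest at 2855 CPM per kb. The heavy chains of the classical complex had 696 for Itih2, 384 for Itih1 and 324 for Itih3. Itih4, whose product circulates without bikunin, had 1008. Itih4, Itih3 and Itih1 lie side by side on chromosome 14 (mm9, 31699662 to 31756475), within 56.8 kb, and differed there by a ratio of up to 3.11.

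Alpha-macroglobulins took the largest share of footprints of the families here, and their coding sequences are the longest. Pzp, which encodes the main alpha-macroglobulin of adult mouse plasma, had the most footprints per gene of the class, with a log2 CPM of 13.22, and Mug1, a murinoglobulin that acts as a monomer, had 12.17. Together they held 33.0% of the footprints of the class. Per kb, Pzp was at 2158 and Mug1 at 1051, below Ahsg, Serpina3k and Ambp. Mug1 shared 76.5% of its windows within 2 mismatches with Mug2, which was not analysed here, and stood at 4506 CPM per kb of the sequence not shared, above the 2178 of Pzp. Without exact copies only, Mug1 stood at 1648 and stayed below Pzp, so the order of the pair turned on the 2-mismatch scale alone.

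Fetuins belong to the cystatin superfamily. Ahsg, or fetuin-A, a carrier that keeps calcium phosphate soluble in blood, was the highest gene of the class per kb, with a log2 CPM of 12.15 and 4652 CPM per kb. Fetub, which inhibits the egg protease ovastacin, had 1133. The genes are neighbours on chromosome 16 (mm9, 22892115 to 22939839), 47.7 kb in all, and differed by a ratio of 4.11. Neither shared a window with another gene. Ahsg was thus the highest of the class only over whole length. Its rank was 5 of the 34 when windows with a copy within 2 mismatches were left out. Without exact copies only, Serpina3k alone stood above it, at 6783 CPM per kb.

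The last families were represented by single genes. Spint2, a membrane-bound Kunitz inhibitor of cell-surface serine proteases, stood at 82.3 CPM per kb. Timp3, a metalloproteinase inhibitor held in the extracellular matrix, stood at 21.0. No Kazal inhibitor of 13 annotated and no cystatin of 10 annotated was among the 34.

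Proteases that these inhibitors act on, or share a compartment with, were read from a list of 42 genes, of which 27 were listed. Their median was 96.1 CPM per kb, against 270.4 for the inhibitors and 11.3 for all genes. Without shared sequence the inhibitors stood at 438 or 540, but shared sequence was not taken off the proteases or the other genes. Of the 27 proteases, 9 lay above the 90th percentile. The highest were plasminogen (Plg) at 2498 CPM per kb, prothrombin (F2) at 1077, cathepsin L (Ctsl) at 601, factor X (F10) at 544 and protein C (Proc) at 455.

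Set beside their inhibitors, the order varied. The thrombin inhibitor Serpind1 (564 CPM per kb) was listed below F2, and Serpina10 (167) below F10. Serping1 (904) was listed above the complement and contact system proteases of the list, which were F12 at 372, Klkb1 at 203, C1s at 117, Masp1 at 96.1 and C1ra at 29.3. Spint2 (82.3) was close to hepsin (Hpn) at 91.0 and the hepatocyte growth factor activator (Hgfac) at 74.2, and above Prss8 at 2.48. Timp3 (21.0) stood below Mmp19 at 68.4 and above the other listed metalloproteinases, which were Mmp14 at 12.1, Adam17 at 8.63, Mmp15 at 7.59 and Mmp2 at 3.33. Serpine2 (4.99), which can inhibit thrombin, plasmin and urokinase, stood far below F2 and Plg and above urokinase (Plau) at 1.44. These are levels of ribosomes on mRNA, not amounts of protein.

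Promoters were examined for short motifs of liver transcription factors. RefSeq promoters (GRCm38.p6) were found for 28 of the 34 genes, and the 250 bases before the start were searched on both strands for 7 motifs. GTTAAT, a half-site of HNF1, was found in 10 of 28, or 35.7%, against 6.52% of 27025 promoters and 7.88% of the 571 other promoters of genes above the 90th percentile of level. The forkhead motif TGTTTGC was found in 8, or 28.6%, against 4.30% and 4.38%. The C/EBP motif TTGCNNAA was found in 7, or 25%, against 9.55% of all promoters and 13.7% of the other highly translated genes. The STAT motif TTCNNNGAA was found in 5, or 17.9%, against 7.18% and 6.83%, and the TATA box TATAAA in 4, or 14.3%, against 13.0% and 9.98%. The other forkhead motif, TGTTTAC, and the HNF4 motif CAAAGTCCA were found in 0 of the 28. They were in 3.09% and 0.381% of all promoters, and in 2.80% and 0.701% of those of the other highly translated genes. Of the 10 genes with GTTAAT and of the 8 with TGTTTGC, 4 are the alpha-1 antitrypsin copies. The 7 with the C/EBP motif include the copies Serpina1b and Serpina1e, so these counts are not of independent genes.

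The 120 bases before the start are printed for the listed alpha-1 antitrypsin copy of highest level and both listed alpha-macroglobulins. They show where GTTAAT (or its reverse complement, both in capitals) lies. They are read 5′ to 3′ on the strand of the gene.
Serpina1b: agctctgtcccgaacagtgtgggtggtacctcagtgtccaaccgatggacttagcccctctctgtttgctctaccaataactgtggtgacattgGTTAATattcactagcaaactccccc
Pzp: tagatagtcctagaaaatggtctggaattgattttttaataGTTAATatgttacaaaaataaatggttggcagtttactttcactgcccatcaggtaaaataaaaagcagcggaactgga
Mug1: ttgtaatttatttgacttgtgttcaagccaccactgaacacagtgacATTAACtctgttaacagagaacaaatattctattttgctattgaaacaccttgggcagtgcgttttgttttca

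In GRCm38.p6 these are chr12:103738190-103738309 on the minus strand for Serpina1b, chr6:128526721-128526840 on the minus strand for Pzp and chr6:121838421-121838540 on the plus strand for Mug1. A match is a description of the letters, and binding of a factor was not measured here.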

How the data were processed

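Ribosome footprints of liver were sequenced from 4 mice in 8 libraries, grouped by the sample titles. Per the study's methods, adapters were trimmed, ribosomal RNA reads were removed with Bowtie, and the rest were aligned to 1 isoform per RefSeq gene, the longest (mm9), keeping single-place alignments with no more than 2 mismatches. Counts leave out 15 codons at the start of each coding sequence and 3 at its end. The authors analysed genes above a minimum CPM in edgeR, and each deposited log2 CPM value is this tool's average, in a table that names no library. A small prior count enters that average, which lifts low values. The other deposited column used is the length in bases, which equals a coding length of the GENCODE annotation (NCBIM37, mm9) less 60 bases for 7093 of the 7260 genes found there, or 97.7%. It was taken as the counted part, although leaving out 15 and 3 codons alone would take off slightly less. The rest of the gap was taken here to be the start and stop codons, which the sources do not state for these counts. The 4 columns of the authors' own diet comparison (fold change, its log2, p-value and adjusted p-value) were not used, and no test was made.

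Linear CPM was taken as 2 to the power of the deposited value and divided by length in kb. The listed genes sum to 857014 CPM. Shares are of that sum. Each 30-base window of the counted part of a gene was compared on the sense strand with 1 coding sequence of every other annotated gene, and the search was tested on simulated sequences. Protein identity came from global alignments (Biopython 1.88) of the encoded proteins. Python 3.11.15 and pandas 2.3.3 were used. The members, gene lists and alternatives were chosen with earlier results of these data known. All families up to 10 genes were named whole, and of clade A the 10 highest and the lowest, the other 4 being given so that every gene is accounted for. Motifs and printed sequences were chosen after the levels were seen.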

Additional observations from a re-analysis of the deposited data

How the results depend on the processing

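No value per library was used, so no mouse could be left out, no error was available and any change in the third digit counts as a move. The median level of 270.4 CPM per kb became 279 when 18 codons were taken off the deposited length, from which they are already missing, and 332 CPM per gene without division by length. After seeing the data, it was also computed with the full coding length of the reference (262), without windows that have an exact copy in another gene (438) and without those that have a copy within 2 mismatches (540). The share of listed footprints, 5.0%, was 5.06% after genes whose log2 CPM was under 3 were left out, 5.60% without Alb and 3.93% without Pzp, the largest member. The median log2 CPM was 4.40 above that of all listed genes, and 4.76 above it after that filter. At a protein identity of at least 80%, 6 members had a near copy among the members, with 8 at 70% and 4 at 90%. Summed as 1 gene over whole counted length, the listed Serpina1 copies came to 1362 CPM per kb against 984 for the highest copy. The listed Serpina3 copies came to 6040 against 4298. The sums lack unlisted copies such as Serpina1d, and reads that aligned to more than 1 place were not kept, so they are not the level of a whole family. Division by RefSeq protein length was not run, since no RefSeq protein table was used here. No paired analysis was possible because no result came from a test and no value per library was used.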
